A study of Populus alba x Populus glandulosa with 9 samples.

Results

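Along the stem of 84K poplar, 1 of 85755 gene identifiers was higher by a set margin at both sampled steps, in the middle internodes against the top ones and again in the bottom internodes against the middle ones. It is Pop_G01G067475. It was chosen by its FPKM values (fragments scaled to gene length and library size): the lowest middle library had to be at least 1.5 times the highest top library, and the lowest bottom library at least 1.5 times the highest middle library. A bottom mean of at least 5 FPKM and a highest top value above 0.2 FPKM were also required, which 29495 identifiers met. The rule thus used the values of all 9 libraries, so the levels and changes of this gene are a description, and no test of them is given as support.

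The stems came from 84K poplar (Populus alba x Populus glandulosa), a hybrid widely used as a laboratory tree. All plants were wild type, 6 months old and about 200 cm tall. There were 3 libraries of poly(A) RNA per position: top (internodes 2 to 3), middle (internodes 9 to 10) and bottom (internodes 14 to 15). Whether the libraries of a position represent different plants is not given in the labels.

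In a tree stem, internodes near the tip lengthen by primary growth. Further down, elongation has ended, and the vascular cambium adds wood (secondary xylem) to the inside and phloem to the outside, so an older internode holds more secondary tissue. A whole internode is a mixture of pith, xylem, cambium, phloem and bark. In such bulk samples, more cells of a type and more RNA per cell cannot be told apart.

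The deposited tables do not pair identifiers with gene names, and no annotation was used here. No function is therefore given for Pop_G01G067475 or for any other identifier below, and tissue markers could not be checked. The letters A, G and Un in identifiers are used only as classes. Library totals were 41434042 to 75217046 counts. All entries of the count table were even, so 2 counts are taken to stand for 1 read pair. Middle library 2 stood apart from the other middle libraries: on the second principal component of log2(FPKM + 1), with 18.2% of the variance, it scored -109.9, against -13.6 and -36.4 for them. Top library 1 also stood apart on this component, at 53.8 against 5.3 and 7.5 for the other top libraries. In Pop_G01G067475 each of them lay between the other libraries of its position. All libraries gave log2 ratios of means of 1.27 for middle over top and 1.09 for bottom over middle. Without middle library 2 these were 1.32 and 1.05, and without top library 1 the first was 1.35.

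Pop_G01G067475 was low in the young internodes and present at a moderate level in the oldest ones. It had 2.09, 1.08 and 2.51 FPKM in top libraries 1, 2 and 3, then 4.26, 4.28 and 5.18 FPKM in the middle libraries and 8.60, 12.0 and 8.56 FPKM in the bottom libraries. The order of the positions was the same whichever libraries were set against each other, with no overlap at either step. Its means, with SD over n = 3 libraries each, were 1.89 ± 0.74 FPKM (top), 4.57 ± 0.53 FPKM (middle) and 9.74 ± 2.00 FPKM (bottom).

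By these means the level in the middle was 2.42-fold that in the top, and the level in the bottom was 2.13-fold that in the middle. From end to end the level was 5.15-fold higher in the bottom than in the top. The 2 steps were therefore of similar size on the log2 scale. They do not span equal lengths of stem: the midpoints of the sampled internodes lie 7 internodes apart in the first step and 5 in the second. Per internode, the log2 ratio was 0.18 in the first step and 0.22 in the second.

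**Figure D1:**
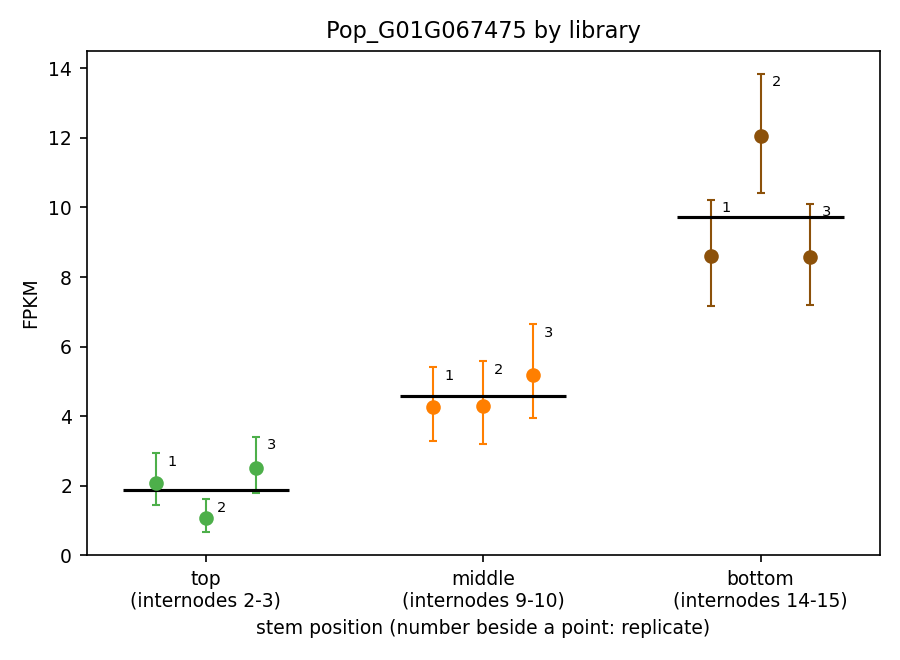
FPKM of Pop_G01G067475 in each of the 9 libraries at the 3 stem positions, with error bars for the 95% Poisson interval of its read pairs (counting error only) and a black line at each position's mean. All middle points lie above all top points and all bottom points above all middle points, and the means step up through 1.89, 4.57 and 9.74 FPKM.

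The spread within positions was uneven. Top library 2, the most deeply sequenced of the 9, held the lowest value, and the highest top value was 2.33 times the lowest. The middle libraries lay within a factor of 1.22 and the bottom libraries within a factor of 1.41, where bottom library 2 was highest. The coefficient of variation was 38.9% among top, 11.5% among middle and 20.5% among bottom libraries. The medians over the 52436 genes tested were 20.3%, 19.7% and 15.9%. The coefficient was lower than that of Pop_G01G067475 in 73.8% (top), 25.2% (middle) and 60.5% (bottom) of genes tested. The gene was thus more variable than most in the top and bottom and less variable than most in the middle. The rule bounds the middle libraries from both sides, so it favours a low spread there. Counting error is part of all these coefficients.

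Its place among other genes moved with its level. In the top, 75.7% of the genes tested had a higher mean FPKM than Pop_G01G067475. This share was 59.1% at the middle and 34.98% at the bottom position. The median gene tested changed little along the stem, with 5.92, 6.11 and 6.14 FPKM.

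The gene was read from few molecules in the upper stem, which limits how exactly its margins are known. The top libraries held 33, 23 and 40 of its read pairs, the middle libraries 66, 54 and 61, and the bottom libraries 128, 197 and 139. The gene length implied by the ratio of counts to FPKM was 568 bases, against a median of 1456 bases over the 29495 genes that met the level criteria. Read pairs were also pooled over the libraries of a position and divided by the pooled library totals. The ratio of middle to top was then 2.51 (exact 95% binomial interval 1.95 to 3.25). That of bottom to middle was 2.15 (1.81 to 2.57). These intervals cover counting error only.

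The margins between nearest libraries were narrower. The lowest middle library was 1.70 times the highest top library, from 66 against 40 read pairs, with an exact 95% binomial interval of 1.13 to 2.58. The lowest bottom library was 1.65 times the highest middle library, from 139 against 61 read pairs, with an interval of 1.21 to 2.27. Both intervals include 1.5, so counting error alone does not place the gene firmly on either side of the required fold. With libraries scaled by TMM (trimmed mean of M-values, a scaling by the bulk of genes, with factors of 0.961 to 1.05), the margins were 1.64 and 1.56, and Pop_G01G067475 was again the 1 gene that met the rule.

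A fit across all genes gave similar fold changes for the 2 steps but called only the first. In edgeR's quasi-likelihood model with 1 coefficient per position, the log2 fold change of Pop_G01G067475 was 1.26 with a standard error of 0.33 for middle against top. It was 1.05 with a standard error of 0.33 for bottom against middle, and 2.30 with a standard error of 0.34 for bottom against top. The median over all genes tested was 0.01, 0.04 and 0.00 in these comparisons. At a Benjamini-Hochberg adjusted p under 0.05, the gene was called higher for middle against top, as were 8.2% of genes tested, and for bottom against top, as were 12.1%. It was not called for bottom against middle, where 0.0153% of genes tested, 8 in number, were called higher. There its unadjusted edgeR p was under 0.05, and neither DESeq2 nor limma on log2(FPKM + 1) called it.

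The call for middle against top did not hold in most fits with 1 library less. It was lost when top library 1 or 2, any 1 of the middle libraries, or bottom library 1 or 3 was left out of the fit, and was kept without top library 3 or bottom library 2. The adjusted edgeR p was 0.0501 to 0.0865 in the fits that lost the call. It was 0.0349 and 0.0426 in those that kept it, and 0.0314 with all libraries. The log2 fold change stayed between 0.98 and 1.54 in these 9 fits. It was also lost with the replicate number as a block. The change in the second step did not differ detectably from that in the first: the difference was -0.21 on the log2 scale with a standard error of 0.56, and none of edgeR, DESeq2 and limma called it. In edgeR the steps were called different in 1.35% of genes tested. DESeq2 called this difference positive in 2090 genes and negative in 2670, and limma in 159 and 208.

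Each step alone was passed by many more genes. Of the 29495 genes that met the level criteria, 1285 (4.36%) had at least 1.5-fold between the nearest libraries of middle and top. For bottom and middle, 55 genes (0.186%) did. Pop_G01G067475 is the gene in both counts, which share the middle libraries.

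**Figure D2:**
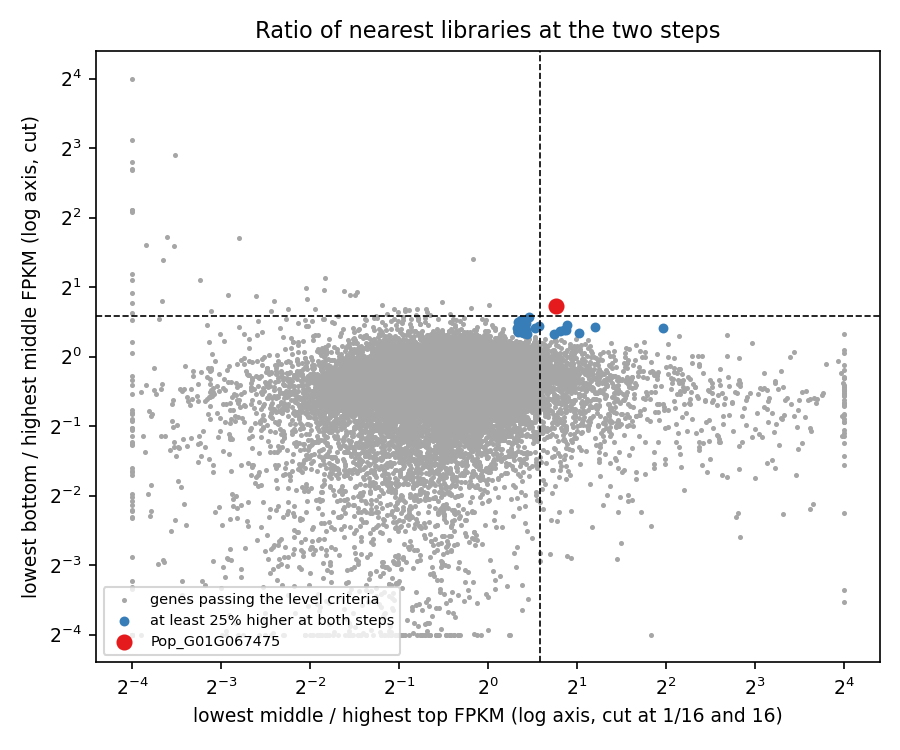
Ratio of the lowest middle to the highest top FPKM (x, log axis) and of the lowest bottom to the highest middle FPKM (y, log axis) for the 29495 genes that met the level criteria, with dashed lines at 1.5 and values beyond 16 or 1/16 drawn at the edge. Pop_G01G067475 (red, at 1.70 and 1.65) is alone in the upper right field, and the 25 other genes at least 25% higher at both steps (blue) lie just outside it.

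The number of genes depends steeply on the fold required. With no overlap alone (a fold of 1), 702 genes were higher at both steps, 2.38% of those that met the level criteria. At 1.1-fold 128 genes remained, with a margin of 25% there were 26, at 1.35-fold 4 and from 1.4-fold to 1.65-fold only Pop_G01G067475. At 1.7-fold no gene did so. The mirrored rule, for genes lower at both steps with a top mean of at least 5 FPKM and a highest bottom value above 0.2 FPKM, gave 253 genes with no overlap (0.875% of 28898), 47 with a margin of 25%, 15 at 1.5-fold and 7 at 2-fold. Genes higher at both steps were thus the larger group with no overlap alone and the smaller one from 1.15-fold upwards. The difference between the groups was not tested.

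**Figure D3:**
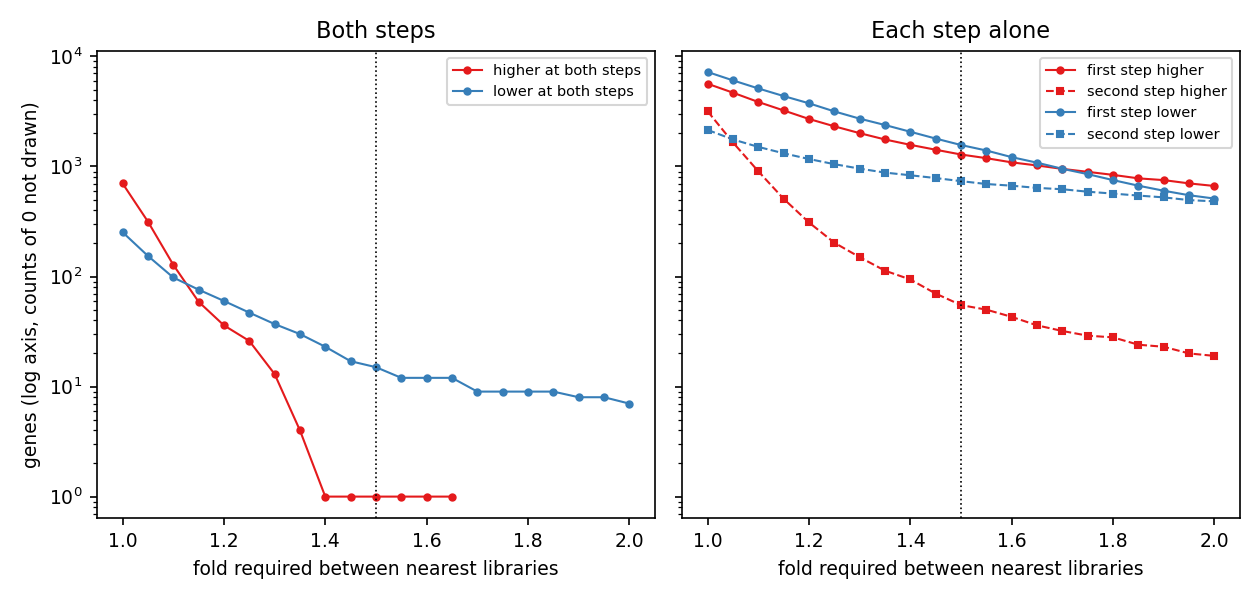
Number of genes (log axis) against the fold required between the nearest libraries, for both steps together (left) and for each step alone (right), with higher genes in red, lower genes in blue and a dotted line at 1.5. The count of genes higher at both steps is 702 at a fold of 1 and 1 at a fold of 1.5. At 1.5, 15 genes were lower at both steps, and 55 genes were higher in the second step against 1285 in the first.

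Position means gave a much larger count. By means alone, 496 genes had at least a 1.5-fold mean increase at each of the steps, and 85 had at least a 2-fold one. Of the 496 genes, 217 overlapped between bottom and middle libraries alone, 46 between middle and top libraries alone and 137 at both steps. The other 96 (19.4%) had no overlap, and 1 of them also had the required 1.5-fold between nearest libraries at both steps. For genes lower at both steps, 445 met the mirrored means, of which 113 overlapped in the second step alone, 106 in the first alone and 119 at both, and 107 (24.0%) had no overlap. By means, then, higher and lower genes differed little in number.

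Single libraries decided how many genes met the rule. Without bottom library 1 it was met by 19 genes, and without bottom library 3 or middle library 1 by 15 each. It was met by 9 genes without middle library 3, by 5 without top library 1, by 4 without bottom library 2, by 3 without middle library 2, by 2 without top library 3 and by 1 without top library 2. Leaving out a library can keep or widen the margins between nearest libraries but never narrow them, so an increase follows from the rule itself. Pop_G01G067475 met it in all 9 cases. This was fixed in advance, since each of its bottom libraries was above 5 FPKM and each top library above 0.2 FPKM. For genes lower at both steps the count was highest without middle library 2, with 70 genes against 15 with all libraries.

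The genes just outside the rule were Pop_A18G089857, Pop_G08G008698, Pop_UnG076157 and Pop_G03G076372, whose smaller margin was 1.38, 1.38, 1.35 and 1.34. Pop_A18G089857 had 0.90, 1.01 and 0.58 FPKM in the top, 1.90, 1.86 and 2.30 FPKM in the middle and 8.90, 3.16 and 3.44 FPKM in the bottom. Bottom library 1 stood far above the other bottom libraries, and the mean of 5.17 ± 3.24 FPKM (SD, n = 3) passed the minimum of 5 through it. Its margin was 1.85 in the first step and 1.38 in the second.

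Pop_G08G008698 was the most abundant of them. It had 49.9, 17.1 and 34.8 FPKM in the top, 92.5, 68.6 and 77.1 FPKM in the middle and 150.0, 137.5 and 137.9 FPKM in the bottom. The bottom libraries were close together and the top libraries far apart, with top library 2 lowest as in Pop_G01G067475. Its margin in the second step was 1.49, from 1284 against 819 read pairs (exact 95% binomial interval 1.36 to 1.62), and in the first step 1.38.

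Pop_UnG076157 had even replicates in the lower stem. It had 25.3, 15.6 and 20.7 FPKM in the top, 38.1, 37.6 and 41.8 FPKM in the middle and 62.8, 61.7 and 56.5 FPKM in the bottom. Here the first margin, 1.49, was nearly enough and the second, 1.35, was not, with an exact 95% binomial interval of 1.24 to 1.47 for the second. Pop_G03G076372 had the lowest bottom mean of the 4, with 1.45, 0.57 and 1.95 FPKM in the top, 2.61, 3.11 and 3.40 FPKM in the middle and 4.78, 5.30 and 5.23 FPKM in the bottom. Its bottom mean of 5.10 ± 0.28 FPKM (SD, n = 3) was near the minimum of 5.

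The 25 other genes whose nearest libraries differed by at least 25% at both steps covered a wide range of levels. Their bottom means ran from 5.10 to 141.8 FPKM with a median of 13.0, their middle means from 1.84 to 79.4 with a median of 7.55, and their top means from 0.47 to 33.9 with a median of 2.89. By means the middle was 1.44-fold to 9.00-fold the top (median 2.23), and the bottom was 1.31-fold to 3.84-fold the middle (median 1.68). In 21 of the 25 genes the first step was the larger one by means, as in Pop_G01G067475. Its ratio of means was exceeded by 9 of them in the first step and by 6 in the second.

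The widest first step among them was that of Pop_G02G005686, where the margin of middle over top was 3.91. It had 0.45, 0.13 and 0.88 FPKM in the top, 5.11, 3.45 and 4.62 FPKM in the middle and 6.94, 7.63 and 6.81 FPKM in the bottom. Pop_A18G018582 had the most similar bottom libraries, with a coefficient of variation of 0.41%. It had 26.6, 18.0 and 13.3 FPKM in the top, 35.3, 33.4 and 35.7 FPKM in the middle and 47.8, 48.1 and 47.7 FPKM in the bottom. Both genes were picked after their values were seen.

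**Figure D4:**
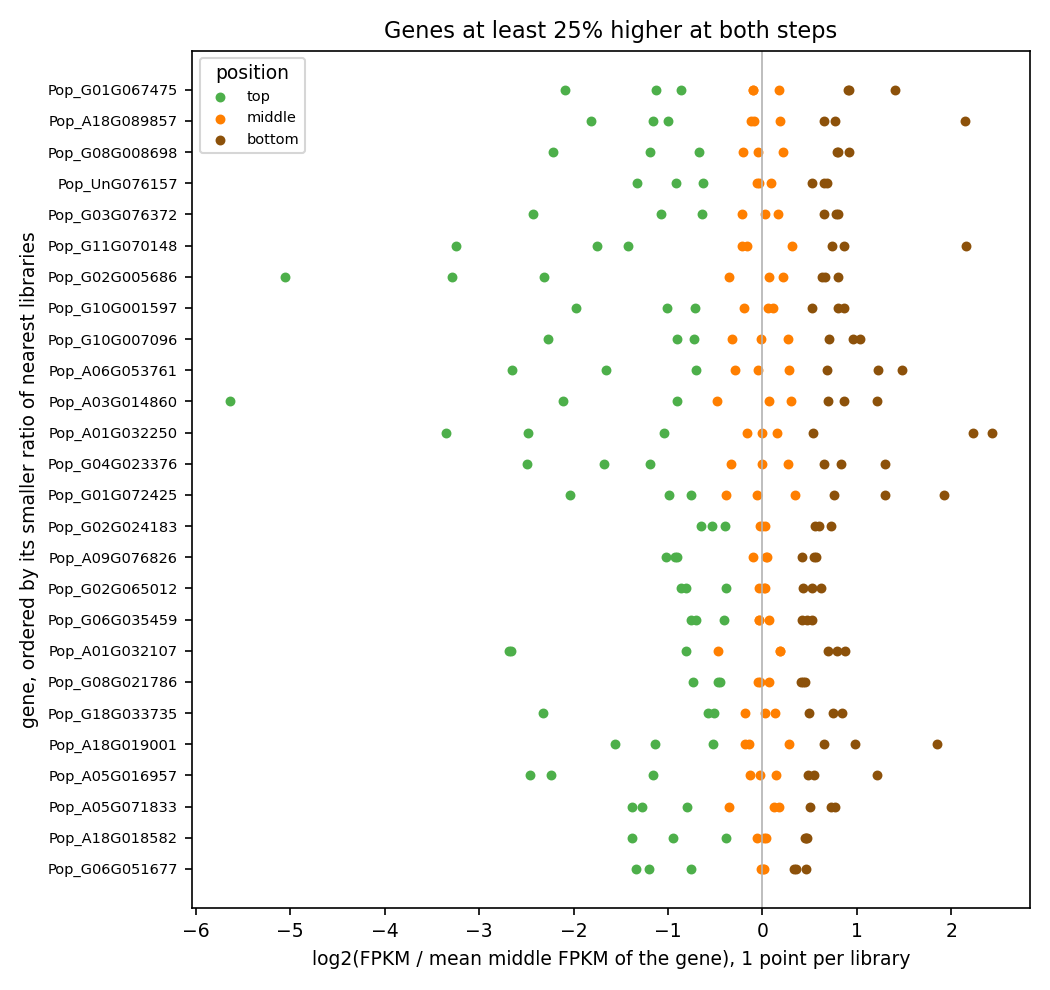
The 26 genes at least 25% higher at both steps, ordered from the top by their smaller ratio of nearest libraries, with each library's FPKM shown on a log2 scale relative to the gene's middle mean (1 point per library, coloured by position). Top, middle and bottom points do not overlap in any gene, as the rule requires, and the top points are the most scattered, with a median coefficient of variation of 40.6% over the 25 genes other than Pop_G01G067475.

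Since the same contrasts chose these 25 genes, their calls are given beside the background, except in the fits with 1 library left out. For middle against top, edgeR called 16 of the 25 as higher (8.2% of all genes tested), and for bottom against top it called 25 of 25 (12.1%). For middle against top, the count was 16, 11 and 12 without top library 1, 2 and 3. It was 11, 10 and 8 without middle library 1, 2 and 3, and 15, 14 and 13 without bottom library 1, 2 and 3. The share of all genes called in these fits is not given here, so whether the counts fell more than that share was not tested. For bottom against middle, edgeR called 0 of the 25 (0.0153% of all genes tested), with 16 higher at an unadjusted edgeR p under 0.05 (1.71%). DESeq2 called 4 of them (0.213% of all genes with an adjusted p), and limma on log2(FPKM + 1) called 0 (0.0153%). The 8 genes that edgeR did call higher for this step were thus all outside these 26.

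The margins are set by the nearest libraries of neighbouring positions. In the first step, over the 26 genes with Pop_G01G067475 included, middle library 2 was the lowest of the middle in 15 genes (57.7%), against 49.7% of the 29495 genes that met the level criteria. Top library 1 was the highest of the top in 13 genes (50.0%) and top library 3 in 11 (42.3%), against 41.7% and 31.4%. In the second step, bottom library 3 was the lowest of the bottom in 16 genes (61.5%), against 30.4%. Middle library 1 was the highest of the middle in 11 genes (42.3%) and middle library 3 in 10 (38.5%), against 48.2% and 29.9%. Top library 2, which as the lowest top library sets no margin, was lowest of the top in 18 genes (69.2%), against 39.1%. The part of these libraries in the selection was not tested.

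By identifier, the 26 genes were spread over classes and chromosome numbers. Class G held 15 of them, class A 10 and class Un 1, which is 57.7%, 38.5% and 3.85%. Among all genes that met the level criteria the classes held 48.6%, 49.9% and 1.53%. Leaving out class Un, the 25 genes carried 15 different combinations of class and chromosome number, and 0 of them were within 5 in number of another one on the same chromosome prefix. Implied gene lengths ran from 187 to 3433 bases in the 25 genes other than Pop_G01G067475, with a median of 1368.

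The identifiers next in number to Pop_G01G067475 are given for context. From top to bottom, Pop_G01G067474 was near 0 throughout, with means that also went up, at 0.04 ± 0.06, 0.07 ± 0.06 and 0.36 ± 0.18 FPKM (SD, n = 3 each). Pop_G01G067476 had its lowest mean at the middle position, with 6.28 ± 1.96, 3.60 ± 0.68 and 5.48 ± 1.36 FPKM (SD, n = 3 each). Whether numbers follow the order of genes on a chromosome is not stated in the tables.

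Genes with the most similar profile over the 9 libraries were found by the root mean square difference of log2(FPKM + 1), each gene centred on its own mean. This measure was chosen after the values were seen. The closest was Pop_G04G023376, at 0.18 log2 units, against a median of 0.83 over all genes tested. It had 1.46, 0.83 and 2.05 FPKM in the top, 5.64, 3.71 and 4.65 FPKM in the middle and 8.32, 11.5 and 7.35 FPKM in the bottom, so its levels were also near those of Pop_G01G067475. It was among the 26 genes.

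The next were Pop_A04G059339 (0.19), Pop_G10G001597 (0.20), Pop_A05G001869 (0.21) and Pop_UnG033998 (0.21 log2 units), of which only Pop_G10G001597 was among the 26 genes. Pop_A04G059339 was near 0 in the top, with means of 0.17, 1.60 and 3.35 FPKM from top to bottom. The 1 added to FPKM narrows ratios at such low levels, so a small distance does not mean similar fold changes. In all 5 genes top library 2 was the lowest top library and bottom library 2 the highest bottom library, as in Pop_G01G067475. The likeness thus includes differences between libraries of 1 position as well as those between positions. Of the 20 most similar genes, 7 were among the 26, where 52436 genes were tested in all. The 26 were chosen for the same pattern in the same libraries, so an overlap is built in and is no support.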

How the data were processed

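Stem RNA of 84K poplar was selected by its poly(A) tail and read from both ends, per the labels' protocols. The submitters' processing notes name the trimmer Trimmomatic 0.36 and the aligner HISAT2. Build, annotation and counting program: not given in the sources used here. One deposited table gives raw counts per gene. The other gives FPKM as the authors computed them from length and depth. Columns were matched to libraries by the code in the sample titles, and 0 columns belonged to other samples.

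The rule for rising genes was applied to the deposited FPKM. For differential expression, all 9 libraries entered 1 quasi-likelihood fit in edgeR 4.0.16 (R 4.3.3), with filterByExpr (minimum count 10, minimum total 15), TMM scaling and a coefficient for every position. P-values were adjusted over all 52436 genes tested, and a gene was called at an adjusted p under 0.05. DESeq2 1.42.0 and limma 3.58.1 served as alternatives. The edgeR pipeline was also run on simulated data, for bottom against middle only. The outcome is not given here, so that run is no support for the calls. Intervals are exact 95% intervals of read pairs and cover counting error only. Within positions, libraries differed beyond sampling noise, at a chi-square of 21.8 to 53.3 per degree of freedom, and none were merged. Calls thus measure the spread of these libraries, part of which may be technical.

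The members, lists and rules were chosen with earlier results of these data known. The text names the gene that meets the rule and the 4 just outside it. Other genes named were picked after their values were seen.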

Additional observations from a re-analysis of the deposited data

How the results depend on the processing

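The number of genes that met the rule was 1 with TMM scaling as well, but 0 at a fold of 2, 26 with a margin of 25% and 10 with no minimum level. It was 702 at a fold of 1 and 496 by means in place of nearest libraries, both chosen after seeing the data. Leaving out 1 library gave 1 to 19 genes. The call of Pop_G01G067475 for middle against top was kept in DESeq2, in limma, with upper quartile scaling, without a filter and on halved counts. For this comparison DESeq2 called 7087 genes higher, of 52167 with an adjusted p, and limma 4420 of 52436. The rule used the same comparison, so a kept call is no support. The call was lost with the replicate block (0 genes called), and leaving out 1 library gave 0 to 1. The calls for bottom against top (1), for bottom against middle (0) and for the difference between steps (0) were the same in all 15 alternatives each. Over 12 alternatives, the log2 fold change was 0.98 to 1.53 for middle over top and 0.91 to 1.19 for bottom over middle. These took ratios of means, differences of mean log2 values or the edgeR fit. Leaving out a library of the position not compared left the ratio of means unchanged. The gene was chosen for no overlap at either step, so the positive sign is no support.

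Whether replicate numbers pair libraries across positions was checked by the correlation of deviations from position means. It was -0.16 to 0.27 for the 9 pairs with the same number, with 4 above 0.1, and -0.19 to 0.16 for the 18 pairs with different numbers, with 2 above 0.1. Pairing was accepted only if every same-number pair was above 0.1, so the numbers were not taken as pairs. This criterion is strict, and failing it does not show that the libraries are unpaired. The codes in the sample titles share a letter within each replicate number. As a hint from the data and not the design, a library correlated best with its own number in 12 of 18 cases. Depth limits the margins of Pop_G01G067475, whose libraries held 23 to 197 read pairs each. The margins rest on 66 against 40 read pairs in the first step and 139 against 61 in the second.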
